A study of Mus musculus with 8 samples.

Results

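The region described here is a 40-kb stretch of the minus strand of mouse chromosome 7 at the Snrpn end of the imprinted Snrpn-Ube3a domain, from 67.12 to 67.16 Mb on genome build mm9. It was read by 711 of the 53834 distinct probes of a custom strand-specific tiling array. These are the probes that are not controls, whose first coordinate is above the second (minus strand), and whose lower coordinate lies in that span. The upper end of the Snrpn-Ube3a deletion was set near 67.148 Mb, so 511 of the probes lie on the deleted side and 200 on the side that the deletion spares. One probe of the deleted side was left out for an outlier mark of the scanner software, and 710 entered all values below.

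Cerebral cortex was taken from C57BL/6 mice on postnatal day 0, and its RNA was hybridised. The paternal deletion (del +/s-u, 1 array) lacks Snrpn to Ube3a on the paternal chromosome, and the maternal deletion (del s-u/+, 1 array) lacks it on the maternal chromosome. The double deletion (2 arrays) carries the maternal Snrpn-Ube3a deletion together with a paternal deletion of the Snrpn promoter. Titles and genotype fields name that promoter allele in opposite order (0.9 then 4.8, and 4.8 then 0.9), so the 2 arrays are called double deletion 1 and 2, in the order of the labels, and no allele is assigned to either. Wild-type littermates gave 2 arrays of total RNA, and polyA RNA purified from the same 2 samples gave 2 more. All 8 arrays lay on 1 slide. The labels do not say how many animals stand behind an array, so a p-value here covers the spread between arrays, which may be technical.

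Snrpn encodes a core protein of the spliceosome's small nuclear ribonucleoproteins, and Snurf is read from the same transcript. In mouse, both are imprinted and transcribed from the paternal chromosome. In neurons the transcription unit that starts at Snrpn extends far beyond the gene, through small nucleolar RNA host exons and introns, and its far part, Ube3a-ATS, runs antisense to Ube3a, a ubiquitin ligase gene that is expressed from the maternal chromosome there. On the minus strand transcription runs towards lower coordinates, from the spared side into the deleted side.

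The double deletion removes the promoter of Snrpn, so the RefSeq sequences before its annotated starts are shown. Neither promoter deletion could be placed on them. RefSeq gives 4 start sites of Snrpn on GRCm38.p6, all on the minus strand of chromosome 7, a build that differs from that of the array, so they could not be placed among the probes. The first line gives the 250 bases before the start that Snrpn shares with Snurf, with each CG dinucleotide in capitals. The other 3 lines give 60 bases around a motif before each upstream start, with the motif in capitals.
Snrpn and Snurf, chr7:60005200-60005449: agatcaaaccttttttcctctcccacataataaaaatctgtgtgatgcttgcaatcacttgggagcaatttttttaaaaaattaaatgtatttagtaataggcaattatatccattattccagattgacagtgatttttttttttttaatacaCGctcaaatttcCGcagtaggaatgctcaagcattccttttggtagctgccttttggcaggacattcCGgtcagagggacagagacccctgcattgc
Snrpn upstream start, chr7:60048016-60048075: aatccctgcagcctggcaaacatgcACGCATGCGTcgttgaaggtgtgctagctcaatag
Snrpn upstream start, chr7:60140270-60140329: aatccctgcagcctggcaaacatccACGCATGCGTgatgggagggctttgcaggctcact
Snrpn upstream start, chr7:60450207-60450266: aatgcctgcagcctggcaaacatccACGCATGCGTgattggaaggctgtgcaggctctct

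The motif ACGCATGCGT reads the same on both strands. It was picked, after the similarity of the upstream windows had been seen, as the longest such run in all 4 Snrpn windows. Its presence there was thus fixed in advance. It stood before the start in all 3 upstream windows, 64 to 79 bases away. In the shared Snrpn and Snurf window it lay 36 bases after the start, and the 250 bases before that start held 3 CG dinucleotides, against a median of 6 over the table. Of the 32817 distinct promoter windows in the table, 0.101% held the motif, and 0.0762% held it before the start. A match is a description of letters and not of binding.

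Levels are log2 of the background-corrected median red intensity of a spot, minus the 75th percentile of the probes outside the locus (65.79 to 67.80 Mb of chromosome 7) on the same array. On this scale the deleted side had a mean level of -0.40 in the paternal deletion, 2.51 in the maternal deletion, -0.01 and 1.44 in double deletion 1 and 2, and 2.64 and 2.54 in the wild types. The maternal deletion lay just below both wild types, the 2 double deletions lay apart from each other, and the paternal deletion lay lowest. The median raw intensity of these probes was 44.3 in the paternal deletion, 1023 in the maternal deletion, 93 and 396 in the double deletions, and 1042 and 898 in the wild types. In the paternal deletion 58.8% of deleted-side probes were well above background, against 99.8% in each wild type, and no probe of the region was saturated on any array. In bulk tissue, fewer cells of a type and less RNA per cell cannot be told apart.

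The spared side read differently. Its mean level was 1.09 in the paternal deletion, 1.21 in the maternal deletion, 0.31 and 1.28 in double deletion 1 and 2, and 1.33 and 1.24 in the wild types. Only double deletion 1 stood well below the other total RNA arrays there. The plus strand opposite the deleted side was dim on every total RNA array, from -0.66 to -0.52.

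**Figure D1:**
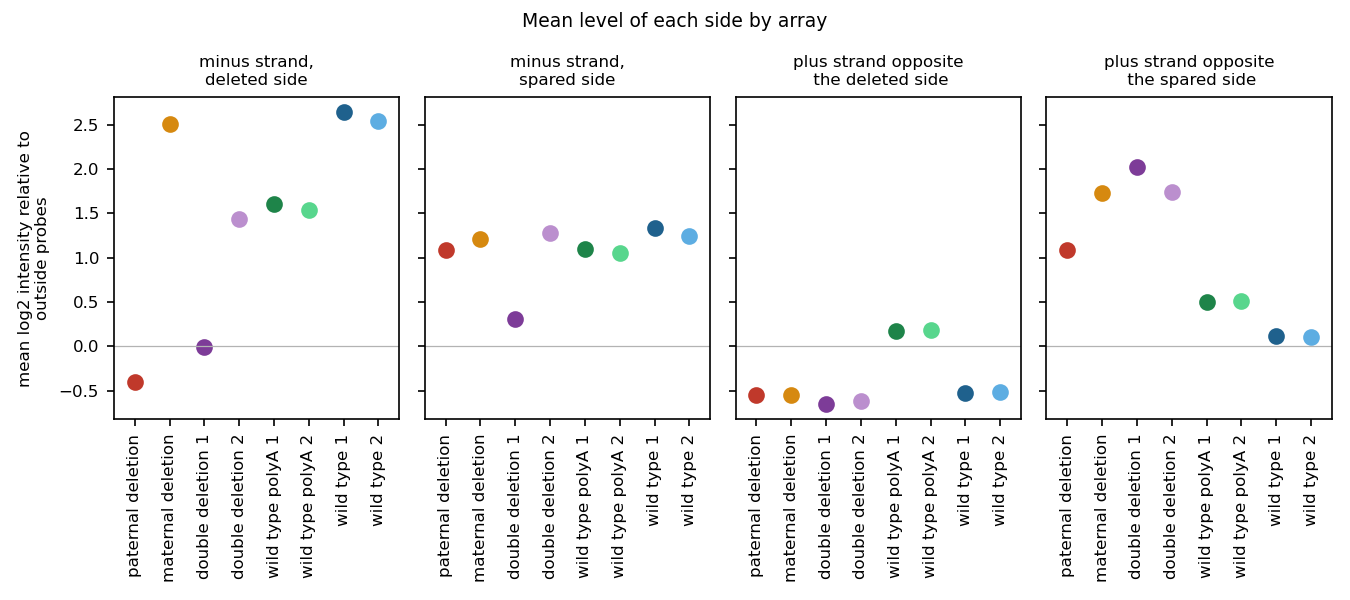
Mean log2 level relative to outside probes (vertical axis) of the minus strand on each side of the deletion end and of the plus strand opposite, with 1 point per array. The deleted side of the minus strand is at -0.40 in the paternal deletion against 2.64 and 2.54 in the wild types, while the spared side is at 1.09 against 1.33 and 1.24.

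The paternal deletion asked how much minus-strand RNA remained without the paternal copy of the deleted span. Across the deleted side the level was 2.99 lower on the log2 scale than in wild type (SE 0.73, 1 array against 2). Its size depended on the background correction, and the deleted side of the paternal deletion lay only 0.14 above the plus strand opposite on this scale. The difference was -3.38 without correction, -3.71 with an offset of 16 and -5.18 with the local background subtracted, so percentages of the wild-type level given below hold for the offset of 50 only. With both double deletions as 1 group, whose arrays set much of the spread, limma gave an adjusted p of 0.126 over 352 regions of both strands, and 0% of those regions were called in that comparison. With each double deletion as a group of its own the same difference had an SE of 0.06 and an adjusted p of 0.00109, where 31% of all regions were called. In that fit the 2 wild types alone set the spread, and leaving out either double deletion gives the same fit for this comparison, so it adds nothing on how far paternal-deletion samples vary. On the spared side the difference was -0.20 (SE 0.49) with adjusted p of 0.999 and 0.126 in these 2 fits. With all probes as the scale, which added 1.25 to every change of this comparison, the spared side read 1.05 higher (adjusted p = 0.0243) and the deleted side 1.74 lower on the log2 scale (adjusted p = 0.0243).

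The drop between the sides passed the test in both fits. The deleted side minus the spared side was 2.79 lower on the log2 scale in the paternal deletion than in wild type (SE 0.22, adjusted p = 0.0326, limma with Benjamini-Hochberg adjustment), where 1.7% of 352 steps were called. The steps lay between neighbouring regions of a strand, and the contrasts of peaks minus floor described below were counted among them. With separate double-deletion groups the adjusted p was 3.34e-09, and 23.6% of steps were called. The position of the split was chosen with earlier results of these data known. The step no longer passed with medians in place of means over the probes (-3.59, adjusted p = 0.0699), or without wild-type replicate 1 (-2.79, adjusted p = 0.511) or replicate 2 (-2.80, adjusted p = 0.462).

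Single probes around the split differed from each other. The probe at 67147632-67147683 had a level of -1.05 in the paternal deletion, against 2.81 and 2.61 in the wild types. The next probe, at 67147710-67147769, had 2.93 in the paternal deletion, against 3.32 and 3.23 in the wild types. Some probes just inside the split kept part of their level, such as that at 67147576-67147635, with 1.74 in the paternal deletion against 3.67 and 3.68 in the wild types. The 6 probes from 185 to 370 bp past the split differed from wild type by -1.09 to -0.73 in the paternal deletion, at 47.1% to 60.4% of the wild-type level. In raw intensity the probe at 67147632 read 53.5 in the paternal deletion against 1122 and 944 in wild type, and the probe at 67147710 read 1159 against 1604 and 1465. The 1-kb bin that holds the split, from 67147001, had 0.62 in the paternal deletion against 2.42 and 2.33, and the bin next to it on the spared side, from 67148001, had 2.12 against 2.64 and 2.47.

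**Figure D2:**
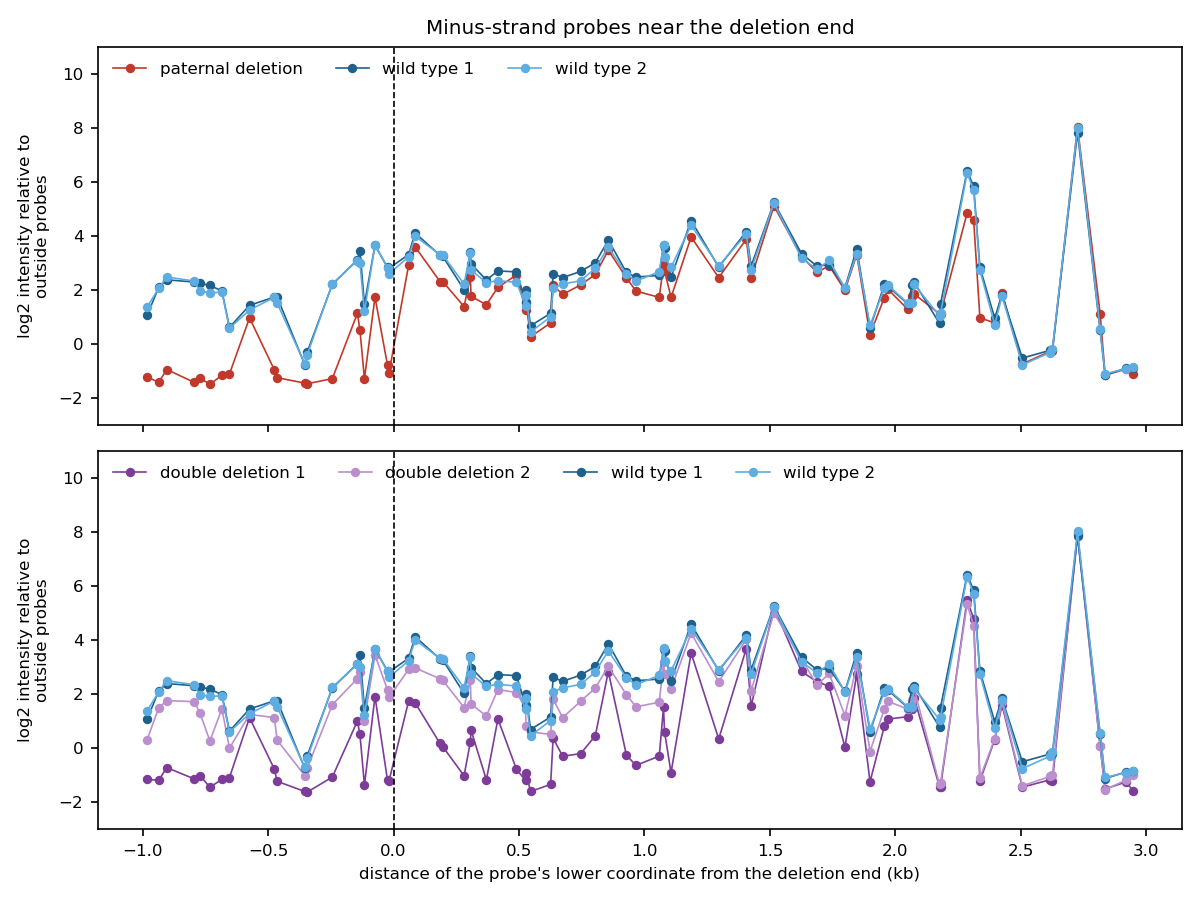
Log2 level of each minus-strand probe (points) against the distance of its lower coordinate from the deletion end (kb), for the paternal deletion with both wild types (top) and for both double deletions with both wild types (bottom). The paternal deletion is at -1.05 on the last probe before the dashed line and at 2.93 on the first probe after it.

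In 1-kb bins, 40 bins made up the region, 28 of them starting on the deleted side. In the paternal deletion 39 of the 40 differences from wild type were negative, and the median difference was -2.79 over the deleted-side bins and -0.14 over the spared-side bins, against -0.02 over all bins tested. None of the 40 was called lower with the planned groups (24 had an unadjusted p under 0.05), where 0% of 3524 bins over both strands were called lower. With separate double-deletion groups 30 were called lower, 27 on the deleted side and 3 on the spared side, against 20.3% of all bins. These 3 were the bins from 67148001 (-0.44), 67149001 (-0.38) and 67152001 (-0.32).

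The 3 bins with the largest falls lay at the low end of the region. The bin from 67121001 had -0.93 in the paternal deletion against 3.83 and 4.00 in the wild types, a difference of -4.84 (adjusted p = 0.131 with the planned groups and 1.49e-08 with separate groups). The bins from 67125001 and 67122001 differed by -4.72 and -4.56. At the other extreme were the bins from 67153001 and 67150001 on the spared side, which differed by 0.01 and -0.01 on rounding, and the bin from 67141001 on the deleted side, which differed by -0.04.

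**Figure D3:**
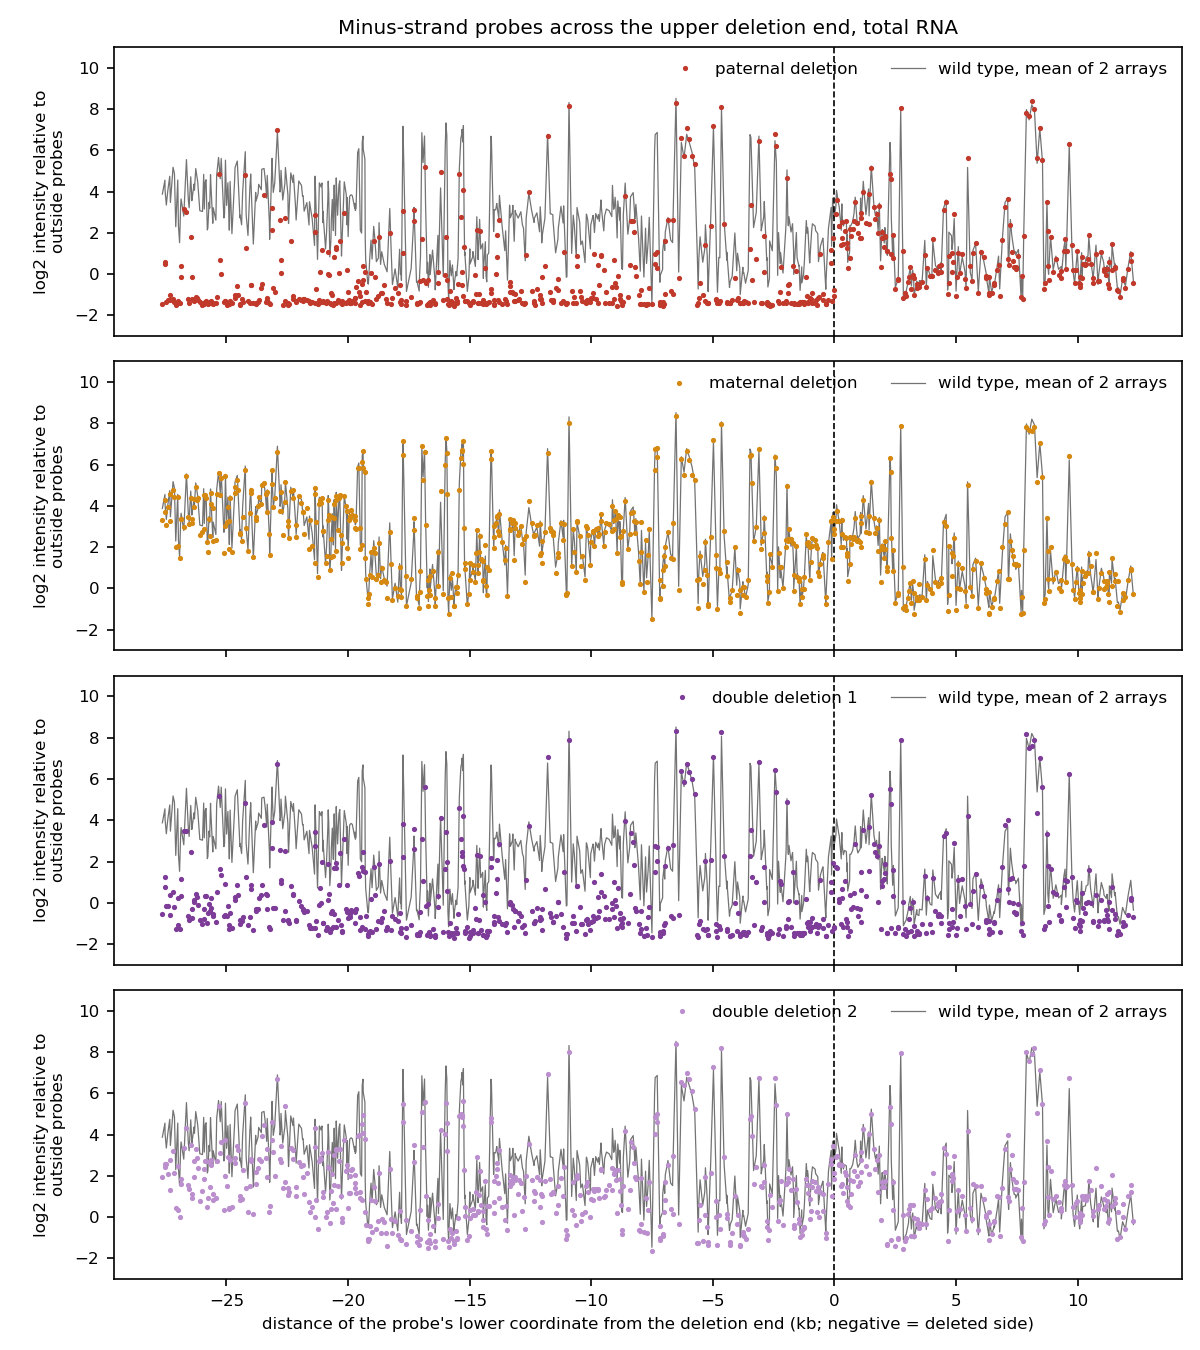
Log2 level of each minus-strand probe against its distance from the deletion end (kb), with 1 panel for each of the 4 mutant total RNA arrays (coloured points) and the mean of both wild types as a grey line in each. The paternal deletion and double deletion 1 lie low left of the dashed line, the maternal deletion follows the wild-type line, and double deletion 2 lies between them.

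Peaks were then set against the floor between them. A peak is a run of at least 3 probes whose running median lies at least 1 log2 above the median of all probes of the region. For the comparisons of total RNA, peaks were chosen on the polyA arrays, which gave 25 peaks, 19 on the deleted side, 1 across the split and 5 on the spared side. The files hold no exon positions on this build, so no peak is called an exon.

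On the deleted side, 134 peak probes had a mean level of 0.07 in the paternal deletion, 4.09 in the maternal deletion, 0.88 and 2.80 in the double deletions, and 4.26 and 4.20 in the wild types. The 376 floor probes had -0.57 in the paternal deletion, 1.94 in the maternal deletion, -0.33 and 0.95 in the double deletions, and 2.07 and 1.95 in the wild types. Both classes were thus lower in the paternal deletion. Peaks minus floor was 0.64 there, against 2.20 and 2.25 in the wild types, a difference of -1.58 (SE 0.30, adjusted p = 0.118, limma with planned groups). With separate double-deletion groups, where the wild types alone set the spread, the adjusted p was 8.07e-08. Floor probes of the paternal deletion lie close to background, where the correction compresses differences. The polyA RNA came from the 2 wild-type samples, so the peaks were picked for being bright in wild type. A fall to background lowers such probes more than the floor, so this contrast supports no separate effect on peaks.

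The deleted-side peaks fell into stretches of different shape. From 67120016 to 67128142 lay 9 peaks, up to 842 bases long, in a part of the region where the floor was also high. Their levels ranged from -1.32 to 0.35 in the paternal deletion, from 3.44 to 4.50 in the maternal deletion, from -0.23 to 1.02 in double deletion 1, from 1.96 to 3.19 in double deletion 2, and from 3.46 to 4.57 in the wild types. No level of the paternal deletion or of either double deletion reached the wild-type range. These peaks were picked for being bright in wild-type RNA, and how many of all probes show such a gap was not counted.

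Beyond them lay narrow, bright peaks. The peak at 67128233-67128416 had -0.30 in the paternal deletion, 5.15 in the maternal deletion, 1.20 and 3.52 in the double deletions, and 5.36 and 5.19 in the wild types. Its brightest probe, at 67128266-67128325, had an intensity of 186 in the paternal deletion, against 18238 and 14833 in the wild types. The paternal deletion read at 2.09% of the wild-type level over this peak. The peak at 67140256-67140425 had 0.71 in the paternal deletion, 6.42 in the maternal deletion, 2.25 and 4.63 in the double deletions, and 6.54 and 6.50 in the wild types. There the paternal deletion read at 1.79%.

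The other narrow peaks of this kind, at 67130686-67130887, 67131566-67131789, 67132226-67132474 and 67144180-67144495, ran in the same order. They had from -0.20 to 1.65 in the paternal deletion, from 4.65 to 5.79 in the maternal deletion, from 1.24 to 2.86 in double deletion 1, from 3.25 to 4.57 in double deletion 2 and from 4.67 to 6.08 in the wild types. On each of these peaks the paternal deletion and both double deletions lay below both wild types. The peaks were picked for being bright in wild-type RNA, and the share of all probes with such a gap was not counted. Weaker peaks at 67133721-67133894, 67138523-67138727 and 67139156-67139501 had -0.59 to 1.14 in the paternal deletion against 2.90 to 3.59 in the wild types.

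One deleted-side peak did not follow. At 67141246-67141965 the level was 5.26 in the paternal deletion, 5.05 in the maternal deletion, 5.13 and 5.36 in the double deletions, and 5.17 and 5.19 in the wild types. The neighbouring probe at 67141136-67141195 was the brightest of the stretch, with an intensity of 48270 in the paternal deletion against 57131 and 60307 in the wild types. Its origin was not tested. Of the 20 peaks on the deleted side or across the split, 19 were lower by over 1 log2 in the paternal deletion and this one differed by 0.08. Single probes elsewhere on the deleted side also kept their level, such as that at 67124746-67124805, with an intensity of 19320 in the paternal deletion against 19255 and 18792 in wild type. In all, 67 of 510 deleted-side probes of the paternal deletion were no more than 1 log2 below wild type. This count takes in probes that were already dim in wild type and had little room to fall. The probe at 67141246-67141305, for instance, had -0.20 in the paternal deletion against -0.01 and 0.21 in the wild types.

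The peak across the split, at 67147506-67148015, had 1.28 in the paternal deletion, 2.99 in the maternal deletion, 0.20 and 2.40 in the double deletions, and 3.07 and 2.99 in the wild types. On the spared side the peak at 67148616-67149445 had 2.91 in the paternal deletion, against 3.36 and 3.32 in the wild types. The peak at 67149936-67150105 had 2.81 in the paternal deletion, against 4.02 and 3.88, and was the spared-side peak that was lower by over 1 log2 there. The 2 dimmer spared-side peaks, at 67152304-67152635 and 67154796-67155154, had 0.58 and 0.84 in the paternal deletion, against 1.19 to 1.44 in the wild types. At 67155436-67156324 the level was 5.69 in the paternal deletion, against 5.64 and 5.66.

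**Figure D4:**
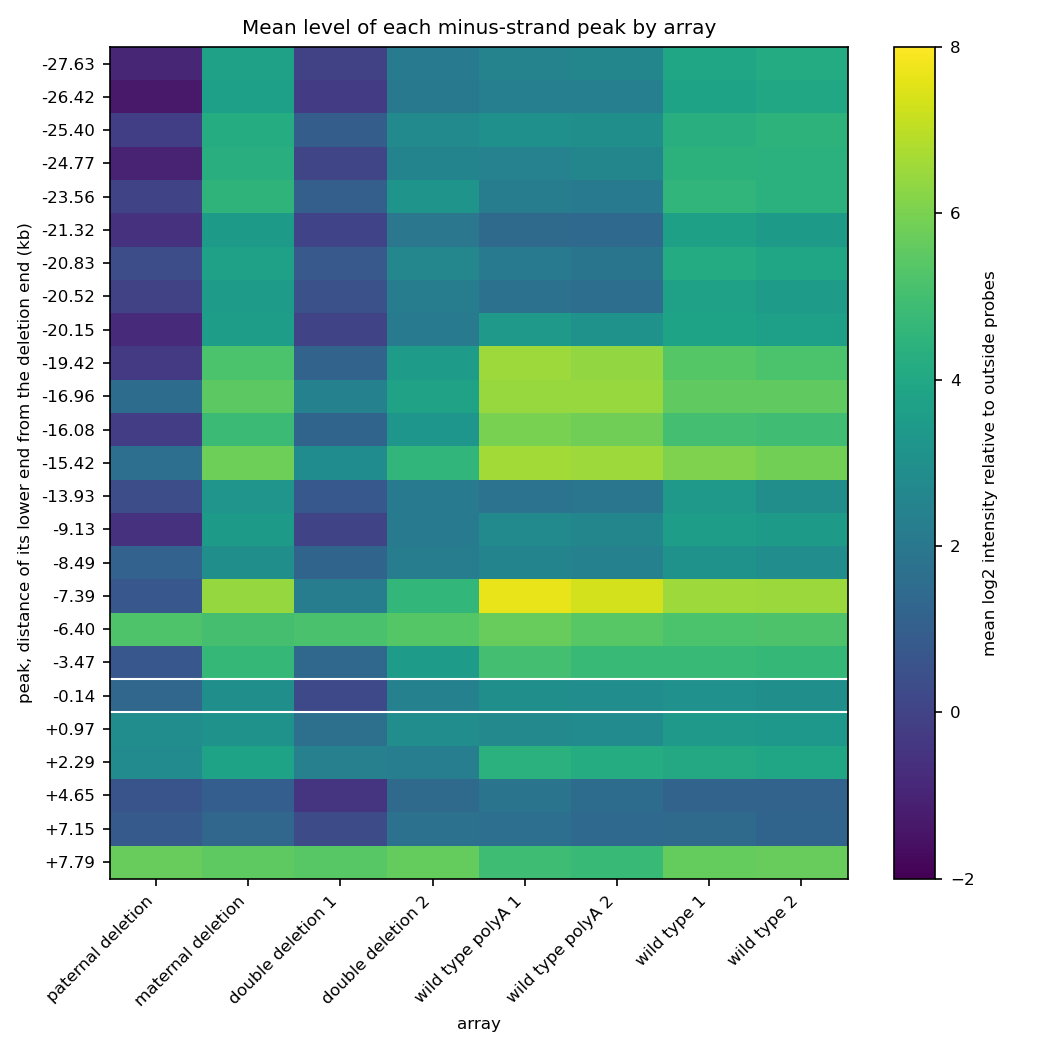
Mean log2 level (colour) of each of the 25 minus-strand peaks chosen on the polyA arrays (rows, by distance of the lower end from the deletion end in kb) on each of the 8 arrays (columns), with white lines around the peak that crosses the end. The paternal deletion is dark on 19 of the 20 peaks above the lower white line, and the peak at -6.40 kb is near 5 on every array.

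The maternal deletion asked whether the maternal copy of the deleted span contributed minus-strand RNA. It lay close to wild type throughout. The deleted side differed by -0.09 (SE 0.73) and the spared side by -0.08 (SE 0.49), with an adjusted p of 0.973 for both (limma, planned groups, 0% of regions called). With separate double-deletion groups the SEs were 0.06 and 0.06, the adjusted p were 0.434 and 0.436, and 21.3% of regions were called. The step at the deletion end differed by -0.01 (SE 0.22, adjusted p = 0.999), where 0.284% of steps were called.

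All 25 peaks of the maternal deletion lay within 0.5 log2 of the wild-type mean, and 507 of 510 deleted-side probes were no more than 1 log2 below it. None of the 40 bins was called lower by limma in either fit (0 and 2 with an unadjusted p under 0.05), against 0% of all bins with planned and 6.73% with separate groups. The lowest differences were -0.23, -0.22 and -0.19, in the bin from 67121001, the first bin of the region and the bin from 67148001. The highest were 0.05 in the bin from 67159001, 0.04 in that from 67133001 and 0.00 in that from 67150001. A p above the threshold with 1 array does not show equal levels.

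The double deletion asked what remained on the minus strand when, besides the maternal deletion, the paternal Snrpn promoter was missing. Its 2 arrays disagreed on how much. On the deleted side double deletion 1 read at 16.4% and double deletion 2 at 44.9% of the wild-type level. On this scale the paternal deletion read at 12.6%, though it lay only 0.14 above the plus strand opposite. Double deletion 1 lay 0.64 and double deletion 2 lay 2.06 above that strand, so the percentages do not give the share of RNA that remained. As a group they differed from wild type by -1.88 (SE 0.59, adjusted p = 0.182, 2 arrays against 2) on the deleted side and by -0.49 (SE 0.40, adjusted p = 0.501) on the spared side, where 18.8% of regions were called. With each array as a group of its own, and the mean of the 2 set against wild type, the adjusted p were 0.00158 and 0.011, and 42.9% of regions were called. That fit leaves out the disagreement between the 2 double deletions (SE 0.05 on the deleted side), and so do those without either of them. Without double deletion 1 the deleted-side difference was -1.16 (adjusted p = 0.00486) and without double deletion 2 it was -2.61 (adjusted p = 0.00137). The spared-side difference was -0.006 without double deletion 1 (adjusted p = 0.954) and -0.98 without double deletion 2 (adjusted p = 0.00383), so it rests on double deletion 1.

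The step at the deletion end was lower in the double deletion by 1.39 on the log2 scale (SE 0.18), with an adjusted p of 0.0779 in the planned fit, where 1.7% of steps were called, and 6.53e-08 with separate groups, where 44.6% were called. It was -1.15 without double deletion 1 (adjusted p = 9.87e-07) and -1.62 without double deletion 2 (adjusted p = 5.42e-08). Peaks minus floor was 1.21 and 1.85 in the double deletions, against 2.20 and 2.25 in the wild types, a difference of -0.69 (SE 0.24, adjusted p = 0.188 with planned and 3.16e-06 with separate groups). It was -0.37 without double deletion 1 and -1.01 without double deletion 2. These peaks too were picked for being bright in wild-type RNA, so the contrast supports no separate effect on peaks.

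Of the 40 bins, 40 were lower than wild type in double deletion 1 and 30 in double deletion 2, which was above wild type by 0.092 to 0.407 in the 9 bins from 67151001 to 67159001. The share of all bins lower on each array was not counted. On the minus strand from 67.16 to 67.70 Mb, beyond the region, double deletion 1 differed from wild type by -0.45 and double deletion 2 by 0.09. The mean of the 2 was below wild type in all 40, with a median difference of -1.71 on the deleted side and -0.24 on the spared side, against -0.08 over all bins. One was called lower with planned groups, the bin from 67149001 on the spared side, where 3.09% of all bins were called. It had 1.69 and 2.01 in the double deletions against 2.92 and 2.83 in the wild types (difference -1.02, adjusted p = 0.0414). It was named after its value was seen, and was not called without either wild-type replicate. With separate groups 35 were called lower, against 29.9% of all bins. The lowest differences were -2.86, -2.83 and -2.75 in the bins from 67121001, 67125001 and 67123001, and the highest were -0.01, -0.09 and -0.13 in those from 67141001, 67156001 and 67154001. Among single probes 32 of 710 were called lower (25 on the deleted side, 7 on the spared side), against 2.44% of 53767 probes.

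Double deletion 1 lay below double deletion 2 on all 20 peaks of the deleted side or across the split. It also lay below double deletion 2 in all 12 bins of the spared side, with a narrow gap in the bins from 67149001 (1.69 and 2.01) and 67150001 (-0.28 and 0.16). The bin from 67148001 had 0.05 in double deletion 1 and 1.93 in double deletion 2, against 2.64 and 2.47 in the wild types. The probe at 67147846-67147905 had 0.05 in double deletion 1 and 2.51 in double deletion 2, against 3.26 and 3.31. The paternal deletion had 2.32 on that probe, which lies 196 bp past the split, on the side that this deletion spares.

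A short stretch at 67149826-67150335 was lower than wild type on both double deletions, at levels close to each other. It was named after its values were seen. The probe at 67149826-67149885 had -1.44 and -1.35 in the double deletions and 1.12 in the paternal deletion, against 0.77 and 1.05 in the wild types. The probe at 67149987-67150031 had -1.21 and -1.11 in the double deletions and 0.98 in the paternal deletion, against 2.85 and 2.74 in the wild types. In raw intensity it read 55 and 56.5 in the double deletions, against 1146 and 1033 in the wild types. The median red background was 37 on both double deletions. Such readings lie near the floor, where arrays draw together, so their closeness does not show equal levels. The overlapping probe at 67149936-67149995 stayed bright, with 5.49 and 5.32 in the double deletions and 4.86 in the paternal deletion, against 6.42 and 6.33 in the wild types. The peak over these probes, at 67149936-67150105, averaged 2.34 and 2.27 in the double deletions, against 4.02 and 3.88 in the wild types, and here the 2 double deletions differed by less than 0.1 log2. The paternal deletion was also below wild type there, at 2.81. Whether this stretch lies in the deleted promoter of either allele was not tested, since neither the allele's ends nor the Snrpn start are given on this build.

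Set against the maternal deletion, with which it shares the maternal allele, the double deletion differed by -1.79 on the deleted side (SE 0.73, adjusted p = 0.537) and by -0.42 on the spared side (SE 0.49, adjusted p = 0.794), where 0% of regions were called. With separate groups the adjusted p were 0.006 and 0.0388, and 26.1% of regions were called. Without double deletion 1 the sides differed by -1.07 and 0.071 (adjusted p = 0.024 and 0.524), and without double deletion 2 by -2.52 and -0.91 (adjusted p = 0.00421 and 0.0115). No bin was called lower with planned groups (5 with an unadjusted p under 0.05), against 0% of all bins, and 31 were with separate groups, against 18.9%. The lowest bins were those from 67125001 (-2.71), 67121001 (-2.63) and 67123001 (-2.59). The highest were those from 67141001 (0.12), 67154001 (-0.04) and 67156001 (-0.05, on rounding). This comparison and that with wild type share the double-deletion arrays, so the 2 are not independent.

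The polyA arrays asked which parts of the minus-strand RNA were carried by polyadenylated transcripts in wild-type cortex. The deleted side had 1.61 and 1.55 in polyA RNA, against 2.64 and 2.54 in total RNA, a difference of -1.02 (SE 0.05, adjusted p = 0.000402, 2 arrays against 2), where 79.5% of regions were called either way. The spared side had 1.10 and 1.05 in polyA RNA, against 1.33 and 1.24 in total RNA (difference -0.21, SE 0.05, adjusted p = 0.02). With the replicate number as a block, since each polyA sample came from a total RNA sample, both calls held. The spared-side call was lost without wild-type total RNA replicate 1 (-0.17, adjusted p = 0.0663) and without polyA replicate 2 (-0.18, adjusted p = 0.0738). In 1 fit of all 8 arrays, which takes in the spread of the double deletions, neither side was called (adjusted p = 0.157 and 0.626). These differences are relative to the outside probes, whose 75th percentile was an intensity of 47 and 46.5 on the polyA arrays against 140 and 134 on the total RNA arrays. The plus strand opposite the deleted side, dim on all arrays, was 0.70 higher in polyA RNA on this scale. With all probes as the scale the sign turned on both sides (0.33 and 1.13), so no direction against the outside probes is drawn.

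Within the region the stretches differed from each other. The 9 peaks from 67120016 to 67128142 had 1.44 to 3.35 in polyA RNA against 3.46 to 4.57 in total RNA. The last of them, at 67127496-67128142, differed least, with 3.35 and 3.08 in polyA RNA against 3.78 and 3.63. Its probe at 67128046-67128105 was higher in polyA RNA, with 7.17 and 6.82 against 5.99 and 5.79. The narrow peak at 67128233-67128416 had 6.54 and 6.36 in polyA RNA, against 5.36 and 5.19 in total RNA. That at 67140256-67140425 had 7.66 and 7.32, against 6.54 and 6.50. Those at 67130686-67130887, 67131566-67131789 and 67132226-67132474 had 5.83 to 6.60 in polyA RNA, against 4.92 to 6.08 in total RNA, and each was higher in both pairs. Of the 25 peaks, 10 were higher in both polyA pairs, but they were chosen on the polyA arrays, so this count supports nothing.

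Chosen instead on the maternal deletion array, 22 peaks were found, of which 7 were higher and 15 lower in both polyA pairs. That array is total RNA and close to wild type. A choice on it favours peaks lower in polyA RNA, so the count of lower ones supports nothing. The 7 were the narrow peaks at 67128233-67128388, 67130686-67130887, 67131566-67131789, 67132226-67132448, 67140256-67140425 and 67144180-67144385, and the constant peak at 67141136-67141965. The 15 lower ones included the long peak at 67123460-67126015, with 1.81 and 1.68 in polyA RNA against 4.03 and 3.95 in total RNA. Peaks minus floor over these peaks of the deleted side was 2.18 and 2.12 in polyA RNA, against 2.39 and 2.46 in total RNA (difference -0.28, SE 0.04, adjusted p = 0.00709), where 67% of steps were called either way. This sign turned under 5 other settings, among them subtraction of the local background (0.77), so no direction is drawn from it.

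In 1-kb bins, 30 of 40 were called lower and 1 higher in polyA RNA, against 36.3% called lower and 41.1% called higher over all bins. The split between higher and lower depended on the scale, with 8 lower and 27 higher when all probes set it. The bins from 67125001, 67124001 and 67123001 were the lowest, with differences of -2.43, -2.14 and -2.04 (adjusted p = 0.000119, 0.000119 and 7.00e-05). The highest were those from 67150001 (0.29, adjusted p = 0.00451), 67151001 (0.18, adjusted p = 0.105) and 67130001 (0.10, adjusted p = 0.0575). Among single probes 458 of 710 were called lower and 109 higher, against 33.9% lower and 45.5% higher over all probes. With planned groups and without the block, the bins at the split had 2.18 and 2.15 in polyA RNA against 2.42 and 2.33 in total RNA (from 67147001), and 1.71 and 1.80 against 2.64 and 2.47 (from 67148001).

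**Figure D5:**
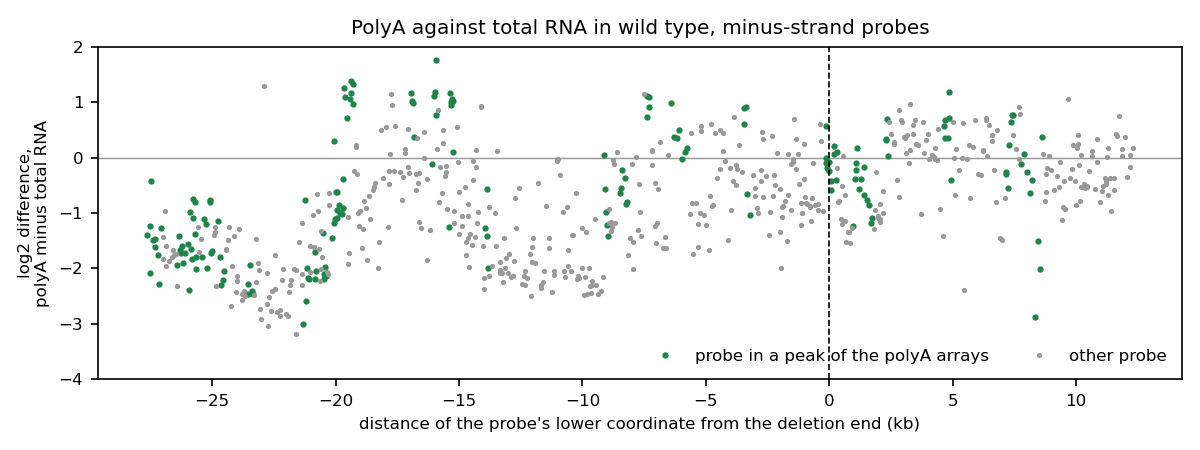
Log2 difference, polyA minus total RNA in wild type (means of 2 arrays each), for each minus-strand probe against its distance from the deletion end (kb), with probes in a peak of the polyA arrays in green and other probes in grey. Most probes of the narrow bright peaks near -19, -16 and -7 kb lie above 0, and nearly all probes from -28 to -20 kb lie below it.

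The minus strand on either side of the region gave the same picture at larger scale. From 67.06 to 67.12 Mb, wholly within the deletion, the mean level was 0.35 in the paternal deletion, 2.95 in the maternal deletion, 0.70 and 1.90 in the double deletions, and 3.19 and 3.06 in the wild types. From 67.16 to 67.70 Mb, beyond the end, it was 1.20 in the paternal deletion, 1.12 in the maternal deletion, 0.80 and 1.34 in the double deletions, and 1.29 and 1.21 in the wild types. Double deletion 1 was the lowest total RNA array in the second stretch, as it was on the spared side.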

How the data were processed

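The authors deposited 1 scanner file per array, with intensity values on a linear scale that were not normalized between arrays. Per the file headers they come from Agilent Feature Extraction 10.7.3.1, whereas the submitters' processing notes name 10.9, and the labels point to the median red signal as the value. Intensities were corrected with normexp (offset 50), put on the log2 scale and scaled to a 75th percentile of 0 over 3334 probes that lie off the locus, outside chr7:65790585-67800765 (limma 3.58.1, R 4.3.3). Spots with an outlier mark were dropped and dim probes kept.

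Regions were 10-kb bins of each strand, with both sides of the split in place of the bins of this stretch, and finer maps used 1-kb bins (at least 3 probes) and probes. Each table was fitted with lmFit and eBayes, two-sided, with Benjamini-Hochberg adjustment over the whole table and a threshold of 0.05. The 6 total RNA arrays formed 4 groups, where the single-array groups are assumed to vary like the others. The 4 wild-type arrays gave the polyA comparison. The polyA samples were purified from the 2 wild-type samples, per the series' design text, and the replicate differences of the 2 RNA kinds correlated at 0.20 over regions.

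Named are both sides, every peak, and in each comparison the 3 bins with the largest rise and the 3 with the largest fall. The short spared-side stretch that was low on both double deletions was added after its values were seen. The region (67120001 to 67160000), its split (67147650) and the lists were chosen with earlier results of these data known. Cell type markers were not used, because the probes carry no gene names. The number of arrays limits the precision.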

Additional observations from a re-analysis of the deposited data

Results flagged for a closer look

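The plus strand opposite the spared side, which no comparison above uses, stood above wild type in every mutant. Its mean level was 1.09 in the paternal deletion, 1.73 in the maternal deletion, 2.03 and 1.74 in the double deletions, and 0.11 in each wild type. The differences from wild type were 0.983 (SE 0.15, adjusted p = 0.114) in the paternal deletion, 1.623 (SE 0.15, adjusted p = 0.0597) in the maternal deletion and 1.771 (SE 0.12, adjusted p = 0.0194) in the double deletion, by limma with planned groups. With separate double-deletion groups the adjusted p were 0.00136, 0.00552 and 0.000992. The plus strand opposite the deleted side differed from wild type by -0.02, -0.03 and -0.12 in these comparisons.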

How the results depend on the processing

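Sides, steps and peaks minus floor were refitted under 305 combinations of result and other setting, of which 244 kept direction and side of the threshold, 32 newly passed, 12 no longer passed and 17 turned sign. Where no construction is named below, the cause was not tested. The planned rescaling of the series matrix was not run, since the rows given hold no probes outside the locus, and its values were taken as deposited instead, a choice made after seeing the data. That of leaving out the constant deleted-side bin was also made then, and it changed no call. Grouping decided most total RNA calls. With double-deletion replicates as separate groups, the paternal deletion passed on the deleted side (-2.99) and for peaks minus floor (-1.58). The double deletion then passed on the deleted side (-1.88), the spared side (-0.49), the step (-1.39) and peaks minus floor (-0.69), and against the maternal deletion on both sides (-1.79 and -0.42). With all 8 arrays in 1 fit the paternal deleted side (-2.99), paternal peaks minus floor (-1.58) and the double-deletion step (-1.39) passed, whereas polyA no longer passed on the deleted side (-1.02), the spared side (-0.21) or for peaks minus floor (-0.28), because that fit takes in the spread of the double deletions. The paternal step missed the threshold on medians of probes (-3.59), as did polyA peaks minus floor (-0.37), while the double-deletion step passed (-1.89). It also passed after local subtraction (-1.81), quantile normalization (-1.25) and on the series matrix (-1.50), as did paternal peaks minus floor after subtraction (-1.15). The maternal step turned to 0.057 after quantile normalization and to 0.011 on the series matrix, and was called in neither. A scale over all probes added 1.25 to paternal, 0.47 to double-deletion and 1.34 to polyA changes. There the paternal sides read -1.74 and 1.05 (both called), the double deletion against the maternal one 0.018 on the spared side, and polyA 0.33 and 1.13. Quantile normalization gave -2.52 (called) and 0.53 (not called) for the paternal sides, -0.052 (not called) and 0.37 (called) for polyA, and 0.62 for polyA peaks minus floor. The polyA spared side read -0.11 without background correction (not called), 0.39 after subtraction (called), 0.031 with offset 16 (not called) and 0.18 on outside probes well above background (called), a scale that added 0.39. PolyA peaks minus floor read 0.77 after subtraction, 0.084 with offset 16 (not called), 0.22 with peaks 2 log2 above the median and 0.38 with peaks chosen on the polyA arrays. With the replicate block the polyA sides stayed at -1.02 and -0.21 and peaks minus floor at -0.28, all called, with 29 bins lower and 2 higher.

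Leaving out each array in turn gave -3.04 to -2.94 for the paternal deleted side, -2.80 to -2.79 for its step and -1.61 to -1.56 for its peaks minus floor. The double deletion ranged from -2.61 to -1.16 on the deleted side, -0.98 to -0.006 on the spared side, -1.62 to -1.15 for the step and -1.01 to -0.37 for peaks minus floor, and against the maternal deletion from -2.52 to -1.07 and from -0.91 to 0.071. PolyA ranged from -0.26 to -0.17 on the spared side and from -0.31 to -0.25 for peaks minus floor. The paternal step no longer passed without either wild type. The deleted side of the paternal deletion and of the double deletion passed without either double-deletion array, when a lone array is assumed to vary like the wild types, the same spread as with separate groups. Bins near 0 turned sign most. Against wild type, the bin from 67153001 in the paternal deletion read -0.023 after subtraction, -0.008 on the scale of bright outside probes, -0.14 on the series matrix and -0.014 to 0.031 with 1 array left out. That from 67150001 read 1.25 on all probes, 0.39 after quantile normalization, 0.010 on medians and -0.034 to 0.023 with 1 array left out, and that from 67141001 read 1.22 and 0.44 in the first 2 of these. Maternal bins from 67159001 and 67133001 read -0.059 (quantile) and -0.067 (medians), the second -0.13 to 0.22 with 1 array left out. In the double deletion the bins from 67141001, 67156001 and 67154001 read 0.46, 0.38 and 0.34 on all probes, 0.27, 0.10 and 0.068 after quantile normalization, and 0.30, 0.12 and 0.14 on medians, and 67141001 read 0.087 on the outside median. Their ranges with 1 array left out were -0.11 to 0.095, -0.46 to 0.27 and -0.47 to 0.20. Against the maternal deletion, bins from 67154001 and 67156001 read 0.054 and 0.052 on the outside median, 0.39 and 0.39 on all probes, 0.22 and 0.20 after quantile normalization, and 0.071 and 0.068 on medians, with ranges of -0.38 to 0.29 and -0.41 to 0.32, and the first read 0.084 on the series matrix. The polyA bins from 67150001, 67151001 and 67130001 read -0.52, -0.63 and -0.71 on the outside median, which added -0.81, and -0.35, -0.083 and -0.49 on the series matrix, and the last -0.48 on medians.

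For the paternal deletion none became 30 with separate groups, 21 on all probes, 18 after quantile normalization, 18 in the fit of 8 arrays and 0 to 30 with 1 array left out. For the double deletion 1 became 35, 19, 2 and 6 in those 4 settings, 2 on the series matrix, 0 on medians, 4 in bins of 500 bp, 0 in bins of 2 kb and 0 to 39 with 1 array left out. Against the maternal deletion none became 31 with separate groups and 0 to 39 with 1 array left out. In polyA the 30 lower and 1 higher bins became 17 and 14 after subtraction, 8 and 27 on all probes, 19 and 12 on bright outside probes, 11 and 18 after quantile normalization, and 4 and 0 in the fit of 8 arrays. Higher bins numbered 4 without correction, 8 with offset 16, 0 on the outside median, 0 on the series matrix, 3 on medians and 1 to 3 with 1 array left out. Bins of 500 bp gave 56 lower and 7 higher, and bins of 2 kb gave 15 lower. Dim probes near background limit the depth to which a fall can be read, as on the floor of the paternal deletion.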
